A study of Mus musculus with 19 samples.

Results

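The genes described here are the ERBB receptors, their ligands and the feedback inhibitor ERRFI1. They were taken by symbol from the deposited count table: the receptors EGFR, ERBB2, ERBB3 and ERBB4, the ligands AREG, EREG, HBEGF, TGFA and BTC, and ERRFI1. All 10 symbols were among the 31276 genes of the table and among the 16704 that passed the filter on low counts. RNA was sequenced from xenograft tumours of HCC827, a human lung adenocarcinoma line with a mutated and amplified EGFR, grown in NCG mice, which lack most lymphocytes. The 19 libraries formed 4 groups: 5 of control (DMSO), 4 of 6-thio-dG, 5 of osimertinib and 5 of osimertinib together with 6-thio-dG (the combination). 6-thio-dG is a nucleoside analogue that telomerase can insert into telomeres, and osimertinib is a covalent inhibitor of mutated EGFR. All groups share 1 cell line, and the labels state neither doses, treatment times nor the age of the mice. Nothing in them says that libraries of a group came from different mice, so a p value measures the spread between these samples, which may be technical.

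ERBB receptors are tyrosine kinases of the cell surface that pair up once a ligand is bound. EGFR binds amphiregulin, epiregulin, HB-EGF, TGF-alpha and betacellulin, the products of AREG, EREG, HBEGF, TGFA and BTC, which are made as membrane proteins and released by proteases. ERBB2 has no known ligand of its own and serves as a partner, ERBB3 has little kinase activity and recruits PI3K, and ERBB4 binds neuregulins. ERRFI1, also called MIG6, binds the kinase domain of active ERBB receptors and inhibits them, and its transcription is induced by EGFR signalling. In lung adenocarcinoma with mutated EGFR the receptor signals without needing much ligand.

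Libraries held 17731752 to 35397346 counts. Counts were scaled by the TMM method, and a level below is in scaled CPM, counts relative to library size, a unit that does not correct for gene length, so levels are compared between libraries and not between genes. The labelled cell type was checked by epithelial markers: all 6 (EPCAM, CDH1, KRT8, KRT18, KRT19 and KRT7) were detected in every library, and their summed level ran from 12771 to 23677 CPM. The lung adenocarcinoma markers NKX2-1, NAPSA and SFTPB were also detected in every library. They summed to 56.6 to 243 CPM in control and 35.2 to 129 under 6-thio-dG. Under osimertinib they summed to 84.3 to 212 CPM and in the combination to 179 to 228, above all 6-thio-dG libraries. Their part in the differences below was not tested. Host cells are of the mouse, while reads were counted by human symbol on hg38, and how mouse reads were handled is not stated. Sums of leukocyte, endothelial, fibroblast and muscle markers therefore do not measure host content. Leukocyte markers summed to at most 6.51 CPM and endothelial markers to at most 13.6 CPM. Skeletal muscle markers ranged more widely, from 16.6 to 919 CPM, with control 1 and control 3 the highest (864 and 919 CPM). The share of counts from 13 genes of the mitochondrial genome was 7.04 to 9.29% in control, 5.27 to 7.86% under 6-thio-dG, 8.62 to 16.0% under osimertinib and 11.0 to 30.2% in the combination. All combination libraries lay above all control and 6-thio-dG libraries, and all osimertinib libraries above all 6-thio-dG libraries. In those comparisons a fit with the share as a covariate cannot tell its part from that of the treatment. Combination 5 and combination 3 had the highest mitochondrial shares (30.2 and 20.9%) and 6-thio-dG replicate 3 the lowest (5.27%). These 3 libraries stood apart when the data were first examined, and results that rest on them are also given without them. In bulk tissue, fewer cells that express a gene and less RNA per cell cannot be told apart.

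EGFR was among the genes with the most reads in these tumours, ranking between 4th and 18th of all genes by read count in each library. That rank is not corrected for gene length. It took 0.320 to 0.541% of all counts in control, 0.516 to 0.726% under 6-thio-dG, 0.320 to 0.516% under osimertinib and 0.273 to 0.474% in the combination. Counting error is small at this depth: the Wilson 95% interval was 0.723 to 0.729% for the highest share, that of 6-thio-dG replicate 3, and 0.271 to 0.276% for the lowest, that of combination 5. Such intervals cover counting error only, because the reads carry no molecular identifiers. The antisense gene EGFR-AS1 had 0 to 14 counts per library against 48453 to 208880 for EGFR. The kit does not mark strand, so reads of EGFR and of its antisense gene cannot be told apart where they overlap.

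EGFR was higher under 6-thio-dG than in every other group, while its level under osimertinib and in the combination lay within or near the control range. In scaled CPM, the controls held 4791, 5217, 3175, 3883 and 3902 for EGFR. The libraries given 6-thio-dG held 5365, 5157, 8136 and 6035. With osimertinib the values were 3944, 4196, 5111, 3121 and 3461, and with the combination 4593, 3602, 3264, 3381 and 3045. The 6-thio-dG libraries lay above all osimertinib and all combination libraries and above 4 of the 5 controls, and 6-thio-dG replicate 3 was the highest of the 19.

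Against control, EGFR rose 1.47-fold under 6-thio-dG, a log2 fold change of 0.56 ± 0.18 (SE, n = 4 and 5 libraries, edgeR adjusted p = 0.0476). This call sat at the threshold. It was lost without control 3, control 4 or control 5, without replicate 1, 3 or 4 of 6-thio-dG, and without osimertinib 1, 2 or 5 or combination 2, 3 or 4, with adjusted p between 0.0517 and 0.234. The call also went with no filter on low counts (adjusted p = 0.109) and in a fit of the 2 groups alone (adjusted p = 0.0799). Leaving out control 5 and osimertinib 5 together gave adjusted p = 0.0956. In all, 16 of 28 alternatives lost it. Without 6-thio-dG replicate 3 the log2 difference was 0.39 (adjusted p = 0.234), and without the 3 libraries that stand apart 0.38 (adjusted p = 0.182). The summed level of the 6 fibroblast markers moved in the other direction: it was 239 to 372 CPM under 6-thio-dG and 382 to 895 CPM in control. Under osimertinib the sum was 446 to 797 CPM. The part of these markers in the EGFR differences from control and from osimertinib was not tested. COL1A1 was the most abundant of them (median 389 CPM) and weighs most in the sum. DCN and PDGFRB were scarce (medians 0.04 and 0.36 CPM), and DCN was at 0 in 6 of the 19 libraries. Both had their highest level in 6-thio-dG replicate 1, where the sum was low (266 CPM).

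The difference in EGFR between the combination and 6-thio-dG alone was wider. EGFR was lower in the combination by a log2 fold change of -0.79 ± 0.18 (adjusted p = 0.00216), a fold of 0.579, and no library of either group overlapped the other. This call held without each single library (highest adjusted p = 0.0123). It was lost without combination 3, combination 5 and 6-thio-dG replicate 3 together, at -0.52 (adjusted p = 0.067), and with the mitochondrial share as a covariate, at -0.35 (adjusted p = 0.442). Osimertinib libraries were also lower than 6-thio-dG libraries in EGFR, at -0.64 ± 0.18 (adjusted p = 0.0211), again with no overlap. That call was lost without 6-thio-dG replicate 3 (-0.49, adjusted p = 0.112), osimertinib 4 (adjusted p = 0.0636) or osimertinib 5 (adjusted p = 0.0524), without the 3 libraries that stand apart (-0.48, adjusted p = 0.079), with no filter on low counts (adjusted p = 0.0583) and with the mitochondrial share as a covariate (-0.45, adjusted p = 0.0672). Leaving out control 5 and osimertinib 5 together also ended it (adjusted p = 0.059).

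EGFR, the target of osimertinib, did not pass the test under either treatment that held the drug. The log2 difference in EGFR from control was -0.08 ± 0.17 (adjusted p = 0.845) under osimertinib, and 2 SE on either side span -0.43 to 0.27. In the combination it was -0.23 ± 0.17 (adjusted p = 0.283), spanning -0.58 to 0.12.

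**Figure D1:**
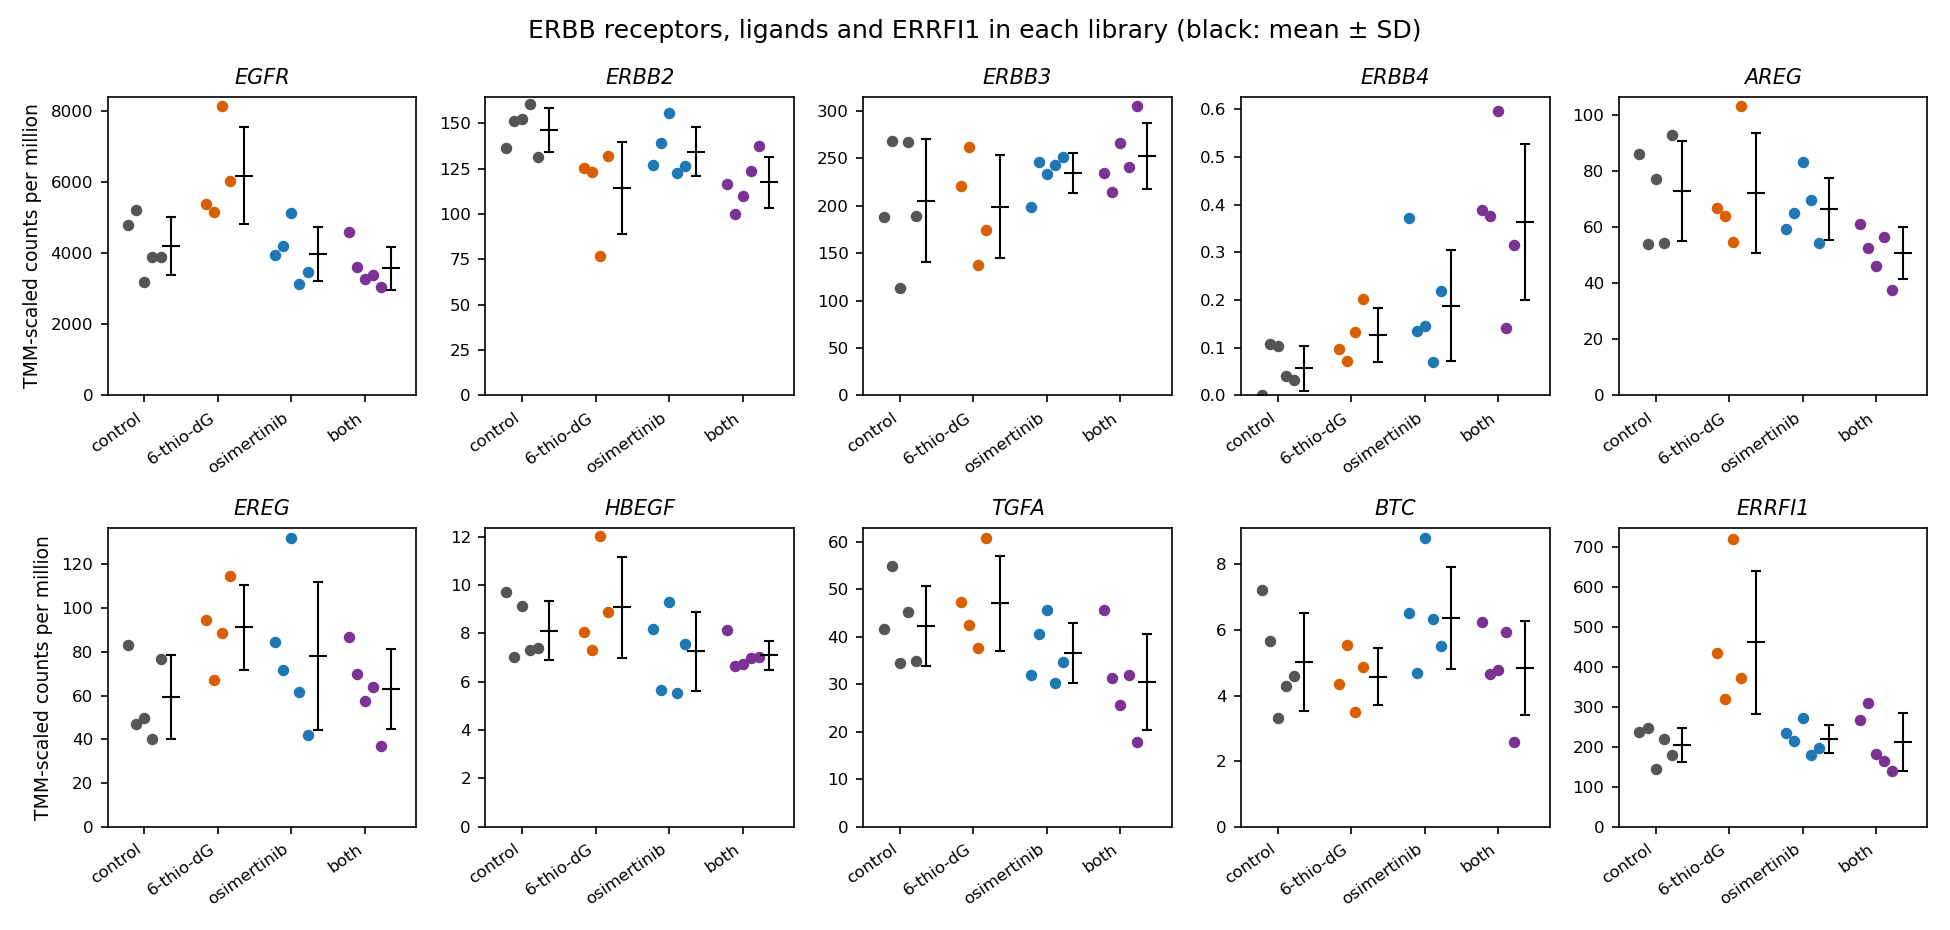
TMM-scaled CPM of the 10 genes (y axes, each from 0) in the 19 libraries by group, with 1 point per library and the mean ± SD in black (n = 5, 4, 5 and 5). ERRFI1 is high in all 4 libraries given 6-thio-dG alone (320 to 718), and EGFR lies between 5157 and 8136 there, while ERBB4 stays under 0.6 everywhere.

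ERRFI1, the receptors' feedback inhibitor, was high in the libraries given 6-thio-dG alone. Its scaled CPM was 237, 247, 145, 220 and 179 in control. The 6-thio-dG libraries held 434, 320, 718 and 371, the osimertinib libraries 233, 215, 273, 179 and 196, and the combination libraries 268, 309, 181, 165 and 140. Every library given 6-thio-dG alone was above every library of the other 3 groups, and those 3 groups overlapped each other.

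Relative to control, ERRFI1 rose 2.24-fold under 6-thio-dG, by 1.17 ± 0.24 on the log2 scale (adjusted p = 0.00434). This call held under all 28 alternatives, which gave log2 values of 0.86 to 1.31 and adjusted p of 0.000105 to 0.0338; the smallest value belonged to the fit without the 3 libraries that stand apart. Without 6-thio-dG replicate 3 it was 0.86 (adjusted p = 0.0322). The summed fibroblast markers were lower in the 6-thio-dG libraries (239 to 372 CPM) than in every control (382 to 895) and every osimertinib library (446 to 797), and overlapped the combination (359 to 816), and their part in the ERRFI1 differences was not tested. ERRFI1 was lower under osimertinib than under 6-thio-dG by -1.07 ± 0.24 (adjusted p = 0.00456), a call that also held under all 28 alternatives, with log2 values of -1.21 to -0.78. Between the combination and 6-thio-dG the log2 difference was -1.12 ± 0.24 (adjusted p = 0.00117). It was -0.60 (adjusted p = 0.0622) without combination 3, combination 5 and 6-thio-dG replicate 3, and -0.51 (adjusted p = 0.447) with the mitochondrial share as a covariate.

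Osimertinib alone left ERRFI1 at 219 ± 36 CPM (SD, n = 5) against 205 ± 43 in control, a log2 difference of 0.09 ± 0.23 (adjusted p = 0.86). The combination stood at 213 ± 72 CPM, 0.05 ± 0.23 from control (adjusted p = 0.871). Whether the effect of 6-thio-dG differed with osimertinib present was tested by the interaction, the difference between the effect of 6-thio-dG under osimertinib and its effect without it. For ERRFI1 the interaction was -1.21 ± 0.33 on the log2 scale (adjusted p = 0.0476), so the 6-thio-dG effect was smaller under osimertinib. That call was lost under 15 of 27 alternatives. Among single libraries it was lost without control 1, 3, 4 or 5, replicate 1 or 3 of 6-thio-dG, osimertinib 1, 2 or 3, or combination 3, 4 or 5, with adjusted p between 0.0517 and 0.12. Without 6-thio-dG replicate 3 the interaction was -0.91, and without the 3 libraries that stand apart it was -0.68 (adjusted p = 0.309).

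Of the 10 genes, ERRFI1 was the one called for interaction, against 1.24% of all tested genes called higher and 2.21% called lower. EGFR had an interaction of -0.71 ± 0.25 (adjusted p = 0.0947) and EREG one of -0.93 ± 0.39 (adjusted p = 0.135). All other members lay between -0.42 (TGFA) and 0.16 (ERBB2), with adjusted p of 0.358 or more.

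**Figure D2:**
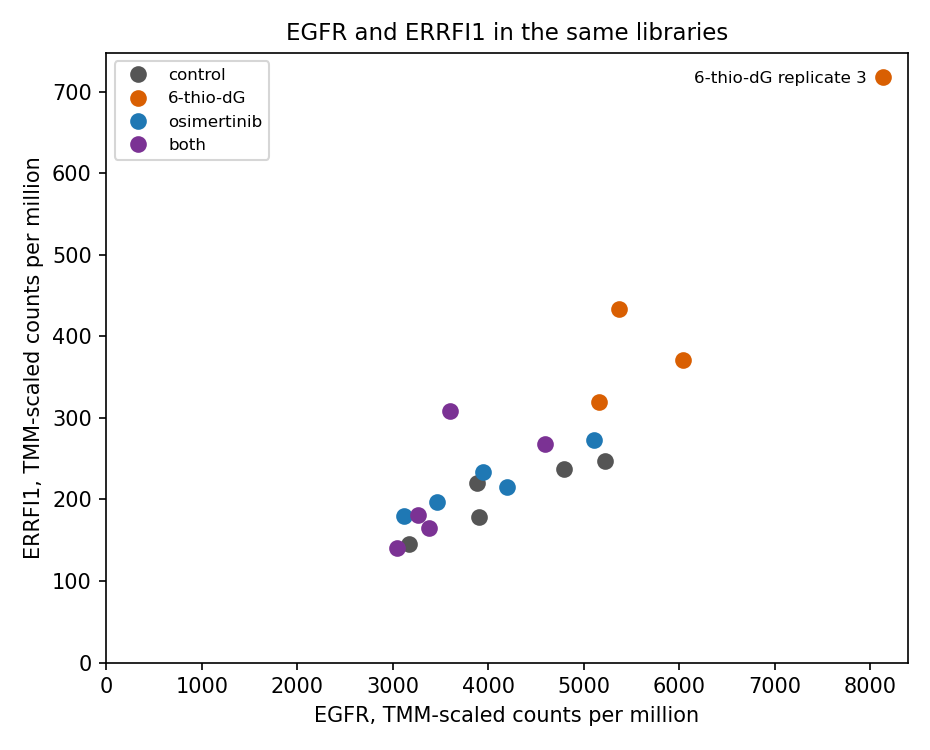
EGFR (x axis) against ERRFI1 (y axis) in TMM-scaled CPM, 1 point per library, coloured by group. The 4 libraries given 6-thio-dG alone lie between 320 and 718 for ERRFI1, with replicate 3 farthest out (8136 and 718), and the other 15 libraries lie between 140 and 309.

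ERBB2, the ligandless partner receptor, did not pass the test in any of the 6 pairwise comparisons. Its level ran from 132 to 161 CPM in control, 76.9 to 132 under 6-thio-dG, 123 to 156 under osimertinib and 100.1 to 137 in the combination. It was nearest to a call in the combination against control, at -0.32 ± 0.13 (adjusted p = 0.0514). There it passed with DESeq2 (adjusted p = 0.0427), in a fit of the 2 groups alone (adjusted p = 0.0435), without control 5 (adjusted p = 0.0464), 6-thio-dG replicate 3 (adjusted p = 0.0121), osimertinib 3 (adjusted p = 0.0492) or combination 5 (adjusted p = 0.0242), and without the 3 libraries that stand apart (adjusted p = 0.0155). Under 6-thio-dG the difference was -0.36 ± 0.14 (adjusted p = 0.0908).

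ERBB3, the partner that links to PI3K, had 114 to 268 CPM in control, 138 to 262 under 6-thio-dG, 199 to 252 under osimertinib and 215 to 305 in the combination. No pairwise difference of ERBB3 was called. The combination was 0.30 ± 0.19 from control (adjusted p = 0.208) and 0.34 ± 0.21 from 6-thio-dG (adjusted p = 0.18), and upper-quartile scaling brought the latter to 0.52 (adjusted p = 0.0491). Control 3 had the lowest ERBB3 level of all 19 and combination 5 the highest (305 CPM), and both were rich in muscle markers (919 and 550 CPM). Control 1, with 864 CPM of muscle markers, held 188 CPM of ERBB3, so these markers and ERBB3 showed no common direction in those libraries.

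ERBB4 was close to the limit of detection. Its raw counts were 0, 3, 3, 1 and 1 in control, 3, 2, 3 and 7 under 6-thio-dG, 12, 5, 5, 2 and 5 under osimertinib, and 11, 8, 15, 4 and 5 in the combination. A count of 0 allows up to 3 counts, or 0.134 CPM in that control library. All combination libraries were above all controls in scaled CPM (0.141 to 0.596 against 0 to 0.108), and the fitted log2 difference was 2.53 ± 0.61 (adjusted p = 0.00259). ERBB4 passed the count filter narrowly, through libraries of osimertinib and the combination, the groups in which it is high. The filter thus favoured a difference from control, and the call adds no support. With no filter the combination differed from control by 2.49 (adjusted p = 0.00738), and osimertinib was not called against control in the main fit (adjusted p = 0.159). ERBB4 did not pass the stricter filter. With the mitochondrial share as a covariate its adjusted p for the combination against control was 0.0901. The difference from 6-thio-dG, 1.48 ± 0.59 (adjusted p = 0.048), was lost under 18 of 27 alternatives, with adjusted p of up to 0.407. Those included the fits without replicate 1, 2 or 3 of 6-thio-dG, without combination 1, 2, 3 or 5, without control 4 or 5, and without osimertinib 2, 3 or 5 (adjusted p of 0.051 to 0.131).

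Among the ligands, AREG fell in the combination. Scaled CPM for AREG was 86.1, 54.1, 77.2, 54.5 and 93.0 in control and 61.2, 52.5, 46.0, 56.6 and 37.7 in the combination. The 6-thio-dG libraries held 66.8, 64.1, 54.6 and 103, and the osimertinib libraries 59.5, 65.1, 83.4, 69.6 and 54.5. The combination overlapped the lower controls, and combination 5 was the lowest of all. The log2 difference from control was -0.52 ± 0.19 (adjusted p = 0.026), a fold of 0.697. It was lost with upper-quartile scaling (-0.42, adjusted p = 0.0637), without control 1, control 5, combination 3 or combination 5 (adjusted p of 0.0606 to 0.0797), without the 3 libraries that stand apart (-0.38, adjusted p = 0.15) and with the mitochondrial share as a covariate (-0.20, adjusted p = 0.71). Leaving out control 5 and osimertinib 5 together also ended it (adjusted p = 0.0807). Against 6-thio-dG alone AREG was lower by -0.51 ± 0.20 (adjusted p = 0.0418). That call went without replicate 1 or 4 of 6-thio-dG or combination 2, 3 or 5 (highest adjusted p = 0.245, without 6-thio-dG replicate 4, at -0.28), with upper-quartile scaling (adjusted p = 0.153), in a fit of the 2 groups alone (adjusted p = 0.0529), without the 3 libraries that stand apart (-0.46, adjusted p = 0.134) and with the mitochondrial share as a covariate (-0.13, adjusted p = 0.855).

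TGFA, the classic autocrine ligand of carcinomas, had 41.7, 55.0, 34.4, 45.2 and 34.9 CPM in control. Under 6-thio-dG it had 47.2, 42.5, 37.6 and 60.8, under osimertinib 32.0, 40.5, 45.6, 30.2 and 34.6, and in the combination 45.6, 31.3, 25.7, 32.0 and 17.9. All combination libraries but the first were below all 6-thio-dG libraries. The combination was lower than 6-thio-dG by -0.62 ± 0.21 (adjusted p = 0.0204), which was lost without 6-thio-dG replicate 4 (adjusted p = 0.0905), without combination 3 (adjusted p = 0.0528), without the 3 libraries that stand apart (-0.47, adjusted p = 0.103) and with upper-quartile scaling (adjusted p = 0.0557). With the mitochondrial share as a covariate the TGFA difference turned to 0.049 (adjusted p = 0.941). The shares of these groups do not overlap, so that value cannot be told apart from the treatment. Against control the combination missed the threshold for TGFA, at -0.47 ± 0.20 (adjusted p = 0.0568). It passed there with DESeq2 (adjusted p = 0.0429), with no filter (adjusted p = 0.0437), and without control 3 (adjusted p = 0.0445), control 5 (adjusted p = 0.0457), 6-thio-dG replicate 3 (adjusted p = 0.0451) or combination 1 (-0.66, adjusted p = 0.00661).

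EREG, epiregulin, ran from 40.0 to 83.2 CPM in control, 67.0 to 114 under 6-thio-dG, 41.9 to 132 under osimertinib and 36.8 to 86.9 in the combination. Its difference under 6-thio-dG, 0.62 ± 0.28 (adjusted p = 0.14), did not pass, nor did that under osimertinib, 0.40 ± 0.27 (adjusted p = 0.43). HBEGF, the heparin-binding ligand, ranged from 5.54 to 12.0 CPM over all groups, with the highest value in 6-thio-dG replicate 3. BTC, betacellulin, ranged from 2.58 to 8.81 CPM. Neither HBEGF nor BTC was called in any pairwise comparison; for HBEGF the nearest was the combination against 6-thio-dG, -0.35 ± 0.18 (adjusted p = 0.119), and for BTC osimertinib against 6-thio-dG, 0.48 ± 0.25 (adjusted p = 0.204), which passed when the mitochondrial share was a covariate (0.78, adjusted p = 0.034).

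**Figure D3:**
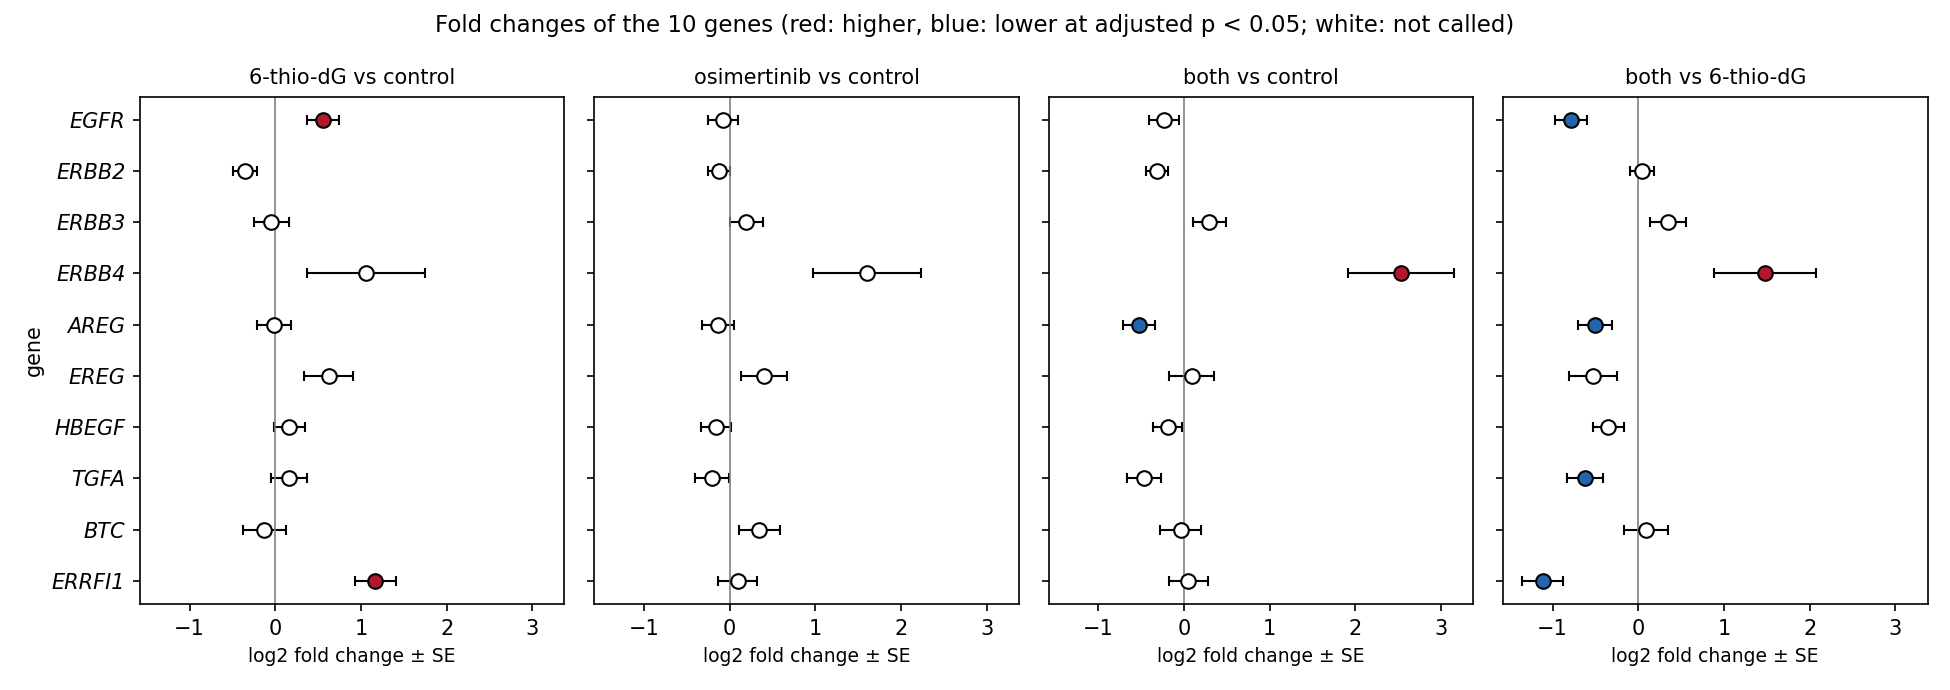
Log2 fold change ± SE (x axis) of the 10 genes (y axis) in 4 comparisons, from 1 edgeR fit over all 19 libraries; red is called higher, blue called lower and white not called. ERRFI1 and EGFR are called higher under 6-thio-dG, no gene is called under osimertinib, and 4 genes are called lower in the combination than under 6-thio-dG, with ERBB4 called higher on few counts.

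Counted over the set, the comparisons ranged from 0 to 5 called genes of 10. Under osimertinib against control, 0 were called by edgeR and 0 by DESeq2, and 1 (ERBB4) had an unadjusted p under 0.05; of all 16704 genes 2.7% were called higher and 1.46% lower. Under 6-thio-dG 2 were higher and 0 lower, against 9.27% and 4.63% of all genes. In the combination against control 1 was higher and 1 lower, beside 25.7% and 23.1% of all genes. The combination against 6-thio-dG had 1 higher and 4 lower, where 21.2% and 22.9% of all genes were called. The gene called higher in both of these comparisons was ERBB4, which passed the filter through the groups in which it is high, so those calls add no support. For osimertinib against 6-thio-dG the count was 0 higher and 2 lower, beside 8.52% and 9.25%. Between the combination and osimertinib 0 were called by edgeR, 0 by DESeq2 and 0 had an unadjusted p under 0.05, while 8.09% of all genes were called higher and 7.66% lower. Apart from ERBB4, the standard errors of that last comparison were 0.13 to 0.27 on the log2 scale. The comparisons with control share the control libraries and those with 6-thio-dG share the 6-thio-dG libraries, so their counts are not independent.

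The median log2 fold change of the 10 genes was 0.01 under osimertinib (0.02 over all genes), 0.16 under 6-thio-dG (0.0058 over all genes) and -0.12 in the combination (0.02 over all genes), each against control. In the combination against 6-thio-dG it was -0.43, beside 0.03 over all genes. Upper-quartile scaling moved the median gene of that comparison by 0.18 on the log2 scale and that of the combination against control by 0.11.

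Ordered by mean scaled CPM, EGFR ran from 6-thio-dG (6173) through control (4194) and osimertinib (3967) to the combination (3577). The last 3 groups overlapped, and none of the differences among them was called. For ERRFI1 the order was 6-thio-dG (461), osimertinib (219), combination (213) and control (205), and again the last 3 overlapped. AREG ran from control (73.0) and 6-thio-dG (72.2) to osimertinib (66.4) and the combination (50.8), where the step from osimertinib to the combination was -0.39 ± 0.19 (adjusted p = 0.145). TGFA ran from 6-thio-dG (47.0) through control (42.2) and osimertinib (36.6) to the combination (30.5), and no neighbouring pair was called. For TGFA, 6-thio-dG was 0.16 ± 0.21 above control (adjusted p = 0.653), and the combination differed from osimertinib by -0.26 ± 0.20 (adjusted p = 0.352).

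Ratios between genes of the same library do not depend on how libraries are scaled, and 8 were computed, as descriptions with no test. How often ratios of other genes keep the groups apart was not computed, so a separation below is not shown to be particular to these genes. The log2 ratio of EREG to AREG counts was -0.32 ± 0.22 (SD, n = 5) in control, 0.35 ± 0.30 (n = 4) under 6-thio-dG, 0.15 ± 0.44 (n = 5) under osimertinib and 0.28 ± 0.21 (n = 5) in the combination. All control libraries (-0.63 to -0.05) lay below all libraries of 6-thio-dG (0.06 to 0.70) and of the combination (-0.03 to 0.51), by a gap of little width, while osimertinib (-0.38 to 0.66) spanned both. For ERBB3 to ERBB2 the combination (0.96 to 1.27) lay above all controls (-0.42 to 0.83), and for ERRFI1 to EGFR the 6-thio-dG libraries (-4.02 to -3.50) lay above all controls (-4.45 to -4.14), so ERRFI1 was higher there also relative to EGFR. Combination 2 had an ERRFI1 to EGFR ratio of -3.54, apart from the other 4 of its group (-4.44 to -4.10). The ratio of ERBB2 to EGFR was -5.76 ± 0.65 (SD, n = 4) under 6-thio-dG, -4.82 ± 0.33 (n = 5) in control, -4.87 ± 0.15 (n = 5) under osimertinib and -4.92 ± 0.33 (n = 5) in the combination. Its highest 6-thio-dG library (-5.39) lay below the lowest of the other 15 libraries (-5.30). For ERBB3 to EGFR the 6-thio-dG libraries reached -4.30 and the combination began at -4.29, while all other pairs of groups overlapped. The ratios of EREG to TGFA, TGFA to AREG and HBEGF to AREG overlapped between all groups.

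**Figure D4:**
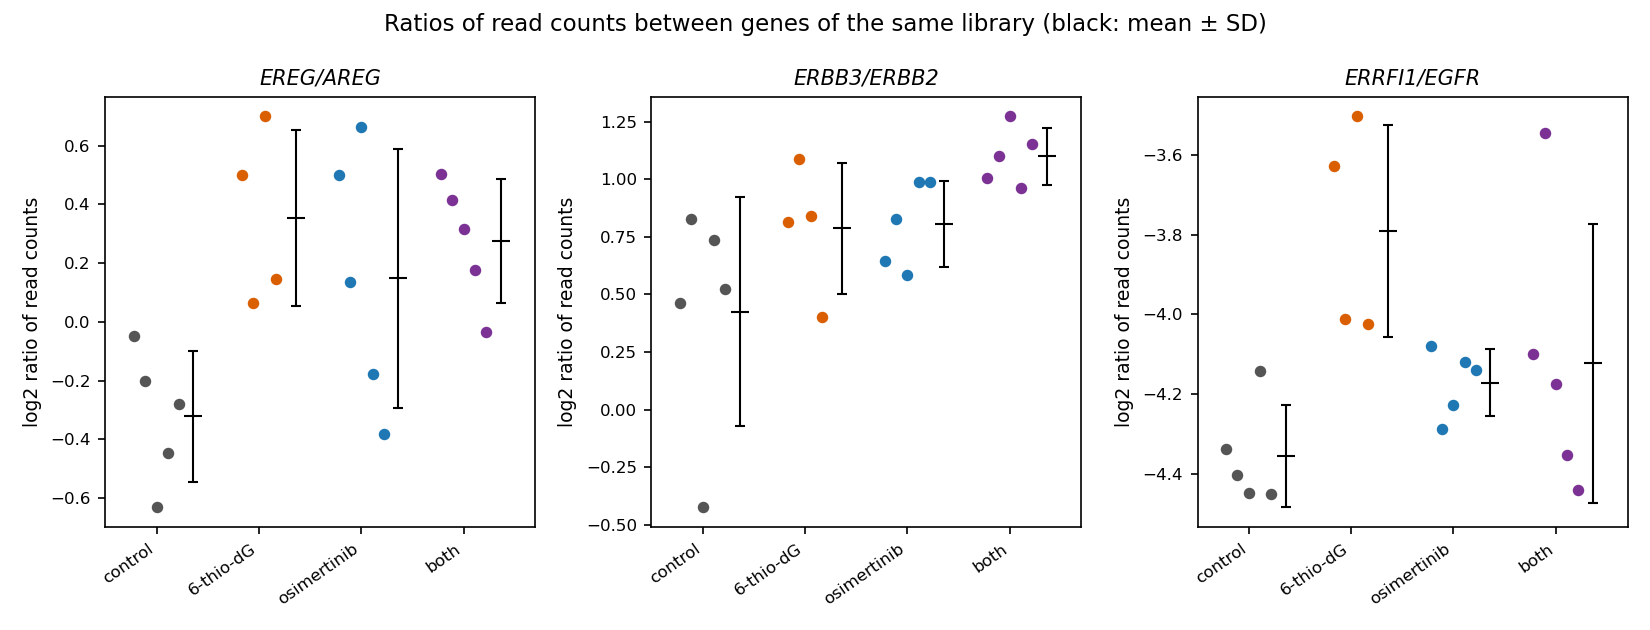
Log2 ratio of read counts between 2 genes of the same library (y axis) by group, 1 point per library with the mean ± SD in black. EREG to AREG is under 0 in all 5 controls, ERBB3 to ERBB2 has its highest mean in the combination, and ERRFI1 to EGFR is highest in 6-thio-dG and in 1 combination library.

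The wider pathway was read from 4 lists: 6 other ERBB ligands, 10 genes of ligand shedding and processing, 17 of receptor turnover and inhibition, and 20 adaptors and near effectors. Of the other ligands, EGF and NRG1 passed the filter, while EPGN, NRG2, NRG3 and NRG4 had at most 13 counts in any library. NRG1, the ERBB3 and ERBB4 ligand neuregulin, fell under 6-thio-dG, from 23.9 ± 5.8 CPM in control to 14.8 ± 5.4, a log2 fold change of -0.69 ± 0.22 (adjusted p = 0.0405), and the libraries overlapped. That call was lost without control 1, control 3, or replicate 1 or 3 of 6-thio-dG, in a fit of the 2 groups alone, and without the 3 libraries that stand apart. EGF itself was higher in the combination than under 6-thio-dG, 1.05 ± 0.32 (adjusted p = 0.012), at 4.16 and 2.00 CPM on average. The libraries overlapped (2.40 to 5.15 against 1.18 to 2.94 CPM). In that comparison the count of called genes of this list fell from 1 to 0 under at least 1 other setting or set of libraries.

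Under 6-thio-dG against control, 5 of 20 adaptors and effectors rose and 0 fell, with a list median of 0.29 beside 0.0058 over all genes, where 9.27% of all genes were called higher. The adaptor NCK1 rose by 0.85 ± 0.18 (adjusted p = 0.00595) and the transcription factor STAT3 by 0.77 ± 0.20 (adjusted p = 0.0156), each with every 6-thio-dG library above every control. The docking protein GAB1, 0.67 ± 0.17 (adjusted p = 0.0157), and the adaptor GRB7, 0.75 ± 0.20 (adjusted p = 0.0162), rose with some overlap. Of the shedding genes 2 of 10 rose, the ligand-releasing protease ADAM17, 0.40 ± 0.13 (adjusted p = 0.0438), and its partner RHBDF2, 0.65 ± 0.19 (adjusted p = 0.0292). Of the turnover genes 2 of 17 rose, the endocytic adaptor EPS15, 0.55 ± 0.17 (adjusted p = 0.0345), and SOCS4, 0.47 ± 0.15 (adjusted p = 0.0439), a count near the 9.27% of all genes. The summed fibroblast markers, in which COL1A1 weighs most, were lower in the same 6-thio-dG libraries, and their part in these counts was not tested. Without the 3 libraries that stand apart, the counts of called adaptor, shedding and turnover genes fell to 2, 0 and 0, and the count over all genes from 2322 to 930.

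Under osimertinib alone, 1 gene of these lists was called. GAB1 was higher at 28.3 CPM against 17.6 in control, 0.69 ± 0.16 (adjusted p = 0.0248), with no overlap. That call was lost without control 3, control 4 or osimertinib 4, and without control 5 and osimertinib 5 together. GAB1 was also called higher in the combination against the same controls, 0.71 ± 0.16 (adjusted p = 0.00183). In the combination against control, 4 adaptors rose and 6 fell of 20, 4 turnover genes rose and 5 fell of 17, and 1 shedding gene rose and 3 fell of 10. These counts lie near the shares of all genes called, 25.7% higher and 23.1% lower. Those that fell included GRB2, which couples receptors to RAS, -1.04 ± 0.21 (adjusted p = 0.000655), RNF41, a ubiquitin ligase that acts on ERBB3, -0.58 ± 0.10 (adjusted p = 0.000242), and CNIH1, a cargo receptor of the early secretory route, -0.76 ± 0.15 (adjusted p = 0.000533). Those that rose included LRIG2, 0.63 ± 0.13 (adjusted p = 0.000891), and the ubiquitin ligase CBLB, 0.83 ± 0.18 (adjusted p = 0.000949). Against 6-thio-dG the combination was lower in 12 adaptors, 8 turnover genes and 6 shedding genes, and higher in 1, 1 and 0, where 22.9% of all genes were called lower and 21.2% higher. STAT3 had the widest of those differences among the adaptors, -1.52 ± 0.20 (adjusted p = 3.8e-05), and RHBDF2 the widest among the shedding genes, -1.17 ± 0.19 (adjusted p = 0.000166).

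With the mitochondrial share as a covariate, the counts of the shedding, turnover and adaptor lists became 0, 1 and 0 in the combination against control and 0, 0 and 0 against 6-thio-dG, while the calls over all genes fell from 8139 to 542 and from 7378 to 191. The share and the group run together, so how much of these differences goes with it cannot be told apart from the treatment.

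The genes most like each member were taken by Pearson's r of log2 CPM over the 19 libraries, among 11567 candidates, as a description that carries the group differences and the depth of the libraries with it. EGFR was closest to the receptor phosphatase gene PTPRK (r = 0.96) and the transcription factor KLF3 (r = 0.96), and ERRFI1 to PIGA (r = 0.96), an enzyme of GPI anchor synthesis, and SERTAD2 (r = 0.95). PIGA averaged 25.6 CPM under 6-thio-dG and 10.6 to 12.5 CPM in the other groups. AREG was closest to TPD52L1 (r = 0.92) and PRKAR2A (r = 0.89), TGFA to SIKE1 and KIAA1671 (both r = 0.92), and EREG to DHX15 (r = 0.90) and SLC25A40 (r = 0.88). BTC ran with FGF13 (r = 0.93) and DDAH1 (r = 0.89), HBEGF with MAP4K4 (r = 0.82) and RALA (r = 0.81), ERBB2 with HDAC4 (r = 0.86) and C1QTNF6 (r = 0.84), and ERBB3 with PLCH1 (r = 0.89) and RNF213 (r = 0.87). ERBB4 gave SREK1IP1 (r = 0.82) and LINC02253 (r = 0.80), on counts too low to carry weight.

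**Figure D5:**
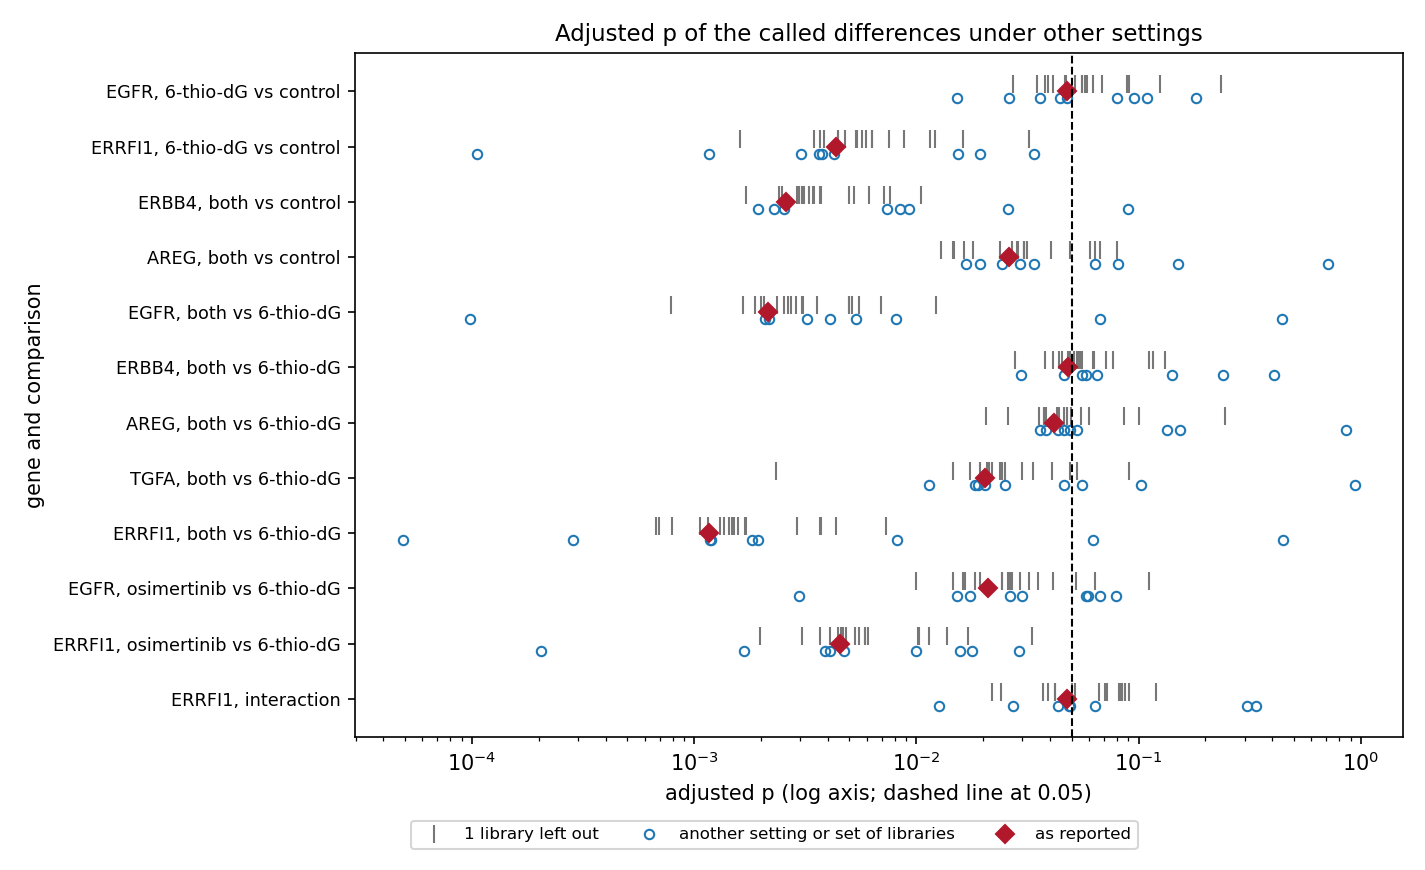
Adjusted p (x axis, log scale) of the 12 differences called among the 10 genes (y axis), as reported (diamond), with 1 library left out (ticks) and under other settings or sets of libraries (circles). Both ERRFI1 differences of single drugs, 6-thio-dG against control and osimertinib against 6-thio-dG, stay left of the dashed line at 0.05 throughout, and the other 10 cross it at least once.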

How the data were processed

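Reads were processed by the authors with FastQC, Trimmomatic and STAR on hg38, per the submitters' processing notes. Their versions, the counter, its annotation and any removal of mouse reads: not given in the sources used here. Raw, unnormalized counts were deposited by human gene symbol, although the labels name the mouse as organism, and 0 columns were left unused. Groups follow the treatment label. The 10 genes, the 4 pathway lists and the alternatives were chosen with earlier results of these data known.

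Counts were fitted with edgeR 4.0.16 in R 4.3.3. The filter filterByExpr (count minimum 10, total minimum 15) kept 16704 genes, and 1 quasi-likelihood fit over 19 libraries with TMM scaling was tested for 6 pairwise contrasts and the interaction. P values were adjusted by Benjamini-Hochberg over all tested genes, and adjusted p under 0.05 was called. The fit was checked on simulated counts for osimertinib against control only, drawn with the spread estimated from these data. That check covers neither libraries that stand apart nor the smaller differences reported here. Scaled CPM divides counts by TMM-effective library sizes; log2 CPM used a prior count of 2. All 10 genes were named; of each list, up to 4 called genes with the smallest p per contrast, and the 2 genes most like each member. Alternatives were DESeq2 1.42.0, RLE or upper-quartile scaling, no filter or a stricter one (CPM of 1 and 10 counts in 4 libraries), the 2 groups alone, the mitochondrial percent as a covariate, and leaving out libraries. Figures used Python 3.11.15 and matplotlib 3.10.9. The reference at hand is of the mouse, so no positions, lengths or sequences were used here.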

Additional observations from a re-analysis of the deposited data

Results flagged for a closer look

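The response of ERRFI1 to 6-thio-dG differed with osimertinib present by an interaction of -1.21 on the log2 scale (edgeR adjusted p = 0.0476). That call was lost under 15 of 27 alternatives, with -0.68 (adjusted p = 0.309) without combination 3, combination 5 and 6-thio-dG replicate 3, and -0.79 (adjusted p = 0.337) with the mitochondrial share as a covariate. In 6-thio-dG replicate 3, ERBB2 was far below the other 3 libraries of its group, at 76.9 CPM against 123 to 132. HBEGF in combination 1, 8.12 CPM, stood above the other 4 of its group, at 6.63 to 7.04. Of 40 groups of values examined for a library standing apart, these 2 were found, and chance alone gives about 1 in 20.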

How the results depend on the processing

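The number of the 10 genes called was compared under each alternative. Under osimertinib against control, and in the combination against osimertinib, it was 0 in every alternative run. With no filter on low counts it was 1 for 6-thio-dG against control, 1 for osimertinib against 6-thio-dG and 3 for the combination against control, where 2 were reported in each. In a fit of the 2 groups alone it was 1 for 6-thio-dG, 3 for the combination against control and 3, in place of 5, for the combination against 6-thio-dG. For the combination against control it was 1 with upper-quartile scaling, 1 with the stricter filter and 4 with DESeq2. With the mitochondrial percent as a covariate it was 0 for the combination against control, 0 against 6-thio-dG and 0 for the interaction. Without control 5 and osimertinib 5, whose title numbers stand apart, it was 1 for 6-thio-dG, 1 for the combination against control, 1 for osimertinib against 6-thio-dG and 0 for the interaction. Without combination 3, combination 5 and 6-thio-dG replicate 3 it was 1 for 6-thio-dG, 1 for osimertinib against 6-thio-dG, 0 for the combination against 6-thio-dG and 0 for the interaction. Leaving out 1 library gave 1 to 2 for 6-thio-dG, 1 to 4 for the combination against control, 2 to 5 against 6-thio-dG, 1 to 2 for osimertinib against 6-thio-dG and 0 to 2 for the interaction. The TGFA difference between the combination and 6-thio-dG reversed to 0.049 with the mitochondrial percent as a covariate. These groups do not overlap in that percent, so the change of sign cannot be told apart from the treatment. The causes were not tested, and the fits that left out libraries also had fewer samples. Of the single-gene values, 1766 kept their direction and side of the threshold, 82 lost a call, 16 gained one and 77 changed sign with no call on either side. These counts include differences that were never called, so they do not measure how stable the calls are. Among the called differences, ERBB4 in the combination against 6-thio-dG was lost under 18 of 27 alternatives. EGFR under 6-thio-dG against control was lost under 16 of 28 and the ERRFI1 interaction under 15 of 27. No paired analysis was possible because the titles share no number across groups and the replicate numbers only name the libraries. Depth limits ERBB4, whose 3-count floor was 0.0848 to 0.169 CPM.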
